A study of Mus musculus with 18 samples.

Results

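The collagen chain genes are the genes whose products assemble in groups of 3 into the collagens, the main structural proteins of the extracellular matrix. They were taken as every mouse gene with a symbol of the form Col, a type number, a and a chain number, provided that it reached at least 10 expected counts in at least 6 libraries. Of 44 such symbols among the 55416 genes of the tables, 35 met this rule, and all 35 were among the 16959 genes tested. They comprised 9 fibrillar chains, 5 basement membrane chains, 6 chains of the FACIT group (fibril-associated collagens with interrupted triple helices) and 15 others. The study profiled ovaries of 18 female wild-type Balb/c mice by 3′ RNA sequencing, with 1 library per mouse and 6 mice in each of 3 groups. The aged Samul-tang group consisted of 40-week-old mice dosed orally with 2.5 g/kg of Samul-tang, which is a decoction of herbs; the aged controls were 40-week-old and the young controls 8-week-old mice, both given distilled water. Dosing was 5 times a week for 4 weeks in all groups. To bring on ovulation all 18 mice were injected with PMSG (pregnant mare serum gonadotropin, 5 IU) and after 48 hours with hCG (human chorionic gonadotropin, 5 IU). Ovaries were removed 16 hours after the hCG injection, so every value describes a hormonally stimulated ovary just after ovulation. Aged mice with and without Samul-tang had been kept apart within shared cages.

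Fibrillar collagens form the load-bearing fibres of the ovarian stroma and of the follicle wall, which is broken down at ovulation and rebuilt as the corpus luteum forms. Basement membrane collagens form sheets around the granulosa layer of follicles and around vessels. FACIT collagens decorate the surface of fibrils, and type VI collagen forms beaded filaments between fibres and cells. Collagen chains are hydroxylated and folded in the endoplasmic reticulum, trimmed outside the cell and then cross-linked. Fibrous collagen is known to build up in the ovarian stroma of ageing mice. RNA levels, as measured here, give neither the amount nor the age of the protein.

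Libraries of the aged Samul-tang group held 14.2 to 20.35 times 1000000 expected counts, against 11.61 to 13.43 times 1000000 in aged controls and 9.05 to 14.15 times 1000000 in young controls. All treated libraries were deeper than all aged and all young controls, and whether they formed a separate batch cannot be told apart from treatment. The most abundant gene, ENSMUSG00000119584, took 6.2 to 14.35% of counts in the aged Samul-tang group, 13.81 to 18.49% in aged controls and 12.58 to 15.95% in young controls. Luteal, granulosa, theca and oocyte markers were present in every group, except the granulosa marker Amh, with at most 3 counts in any library. The 4 luteal markers, for example, summed to 7298 to 8104 counts per 1000000 (CPM) in the aged Samul-tang group, 6259 to 7527 CPM in aged controls and 4851 to 6197 CPM in young controls. Most of this sum was Hsd3b1, with medians of 5285, 4585 and 3627 CPM in the same order. In aged Samul-tang against aged controls 2 of the 4 lay above 0 and 2 below, and none was called. Young control 3 and aged Samul-tang 6 had the lowest mean correlation with the other libraries of their groups, 0.964 and 0.963. Calls of chains with age that changed without them are given with and without them. For aged Samul-tang against aged controls, the count of called chains is given without aged Samul-tang 6. Because each 3′ tag stands for 1 transcript, CPM were not divided by gene length.

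A few chains made up most of the collagen RNA. Col1a2 had the highest mean over the 18 libraries at 762.7 CPM, followed by Col3a1 at 690.2, Col4a1 at 464.8, Col1a1 at 295.0 and Col4a2 at 192.3 CPM. These 5 genes held 78.8% of all collagen CPM in the aged Samul-tang group, 78.0% in aged controls and 79.8% in young controls. In the deposited TPM values, which are divided by length, the order of the first 4 was the same and Col4a2 stood in place 6. At the other end, Col9a2 and Col25a1 were the members nearest the count limit, each with at least 10 counts in 12 libraries. Just outside it, Col24a1 reached 10 counts in 2 libraries and Col9a3 and Col4a6 in 1 each. The other 6 symbols under the limit were Col17a1, Col19a1, Col10a1, Col28a1, Col2a1 and Col9a1. Col2a1, the main collagen of cartilage, had at most 2 counts in any library and Col9a1 had 0.

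Summed over a class, fibrillar chains stood at 1817 ± 198.4 CPM in the aged Samul-tang group, 1758 ± 173 CPM in aged controls and 2214 ± 277.7 CPM in young controls (SD, n = 6). Basement membrane chains summed to 642.9 ± 43.95 CPM in the aged Samul-tang group, 658 ± 20.48 CPM in aged controls and 762 ± 141.1 CPM in young controls. FACIT chains, the least abundant class, summed to 58.13 ± 5.315 CPM in the aged Samul-tang group, 55.27 ± 3.658 CPM in aged controls and 67.38 ± 3.442 CPM in young controls. The highest aged control, at 60.09 CPM, lay below the lowest young control, at 61.47 CPM, but only with Col9a2 in the sum. That chain, a member through the other groups, had 5.752 CPM in this young library (young control 3) and at most 1.028 CPM in aged controls. The remaining chains summed to 343.5 ± 43.78 CPM in the aged Samul-tang group, 379.9 ± 22.65 CPM in aged controls and 371.6 ± 15.02 CPM in young controls. Of all collagen RNA, fibrillar chains took 63.4% in the aged Samul-tang group, 61.6% in aged controls and 64.8% in young controls, and basement membrane chains took 22.5% in the aged Samul-tang group, 23.1% in aged controls and 22.2% in young controls. These sums are descriptions without a test.

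The comparison of aged with young controls asked how the collagen chains differed with age in the stimulated ovary. In aged ovaries 7 of the 35 chains fell and none rose (edgeR quasi-likelihood test, adjusted p under 0.05). Over all genes, 6.03% were called lower and 5.25% higher, 11.3% in all. The 7 were the fibrillar chains Col1a2, Col5a1, Col5a2 and Col11a1, the FACIT chain Col9a2, and Col6a4 and Col26a1 of the remaining class. The median log2 fold change of the 35 chains was -0.178, against 0.005 over all genes, and 21 of the 35 lay below 0, against 48.8% of all genes. Unadjusted p was under 0.05 for 15 chains, 12 of them lower, against 24.0% of all genes in both directions. In whole ovaries, fewer cells of a type and less RNA per cell cannot be told apart.

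**Figure D1:**
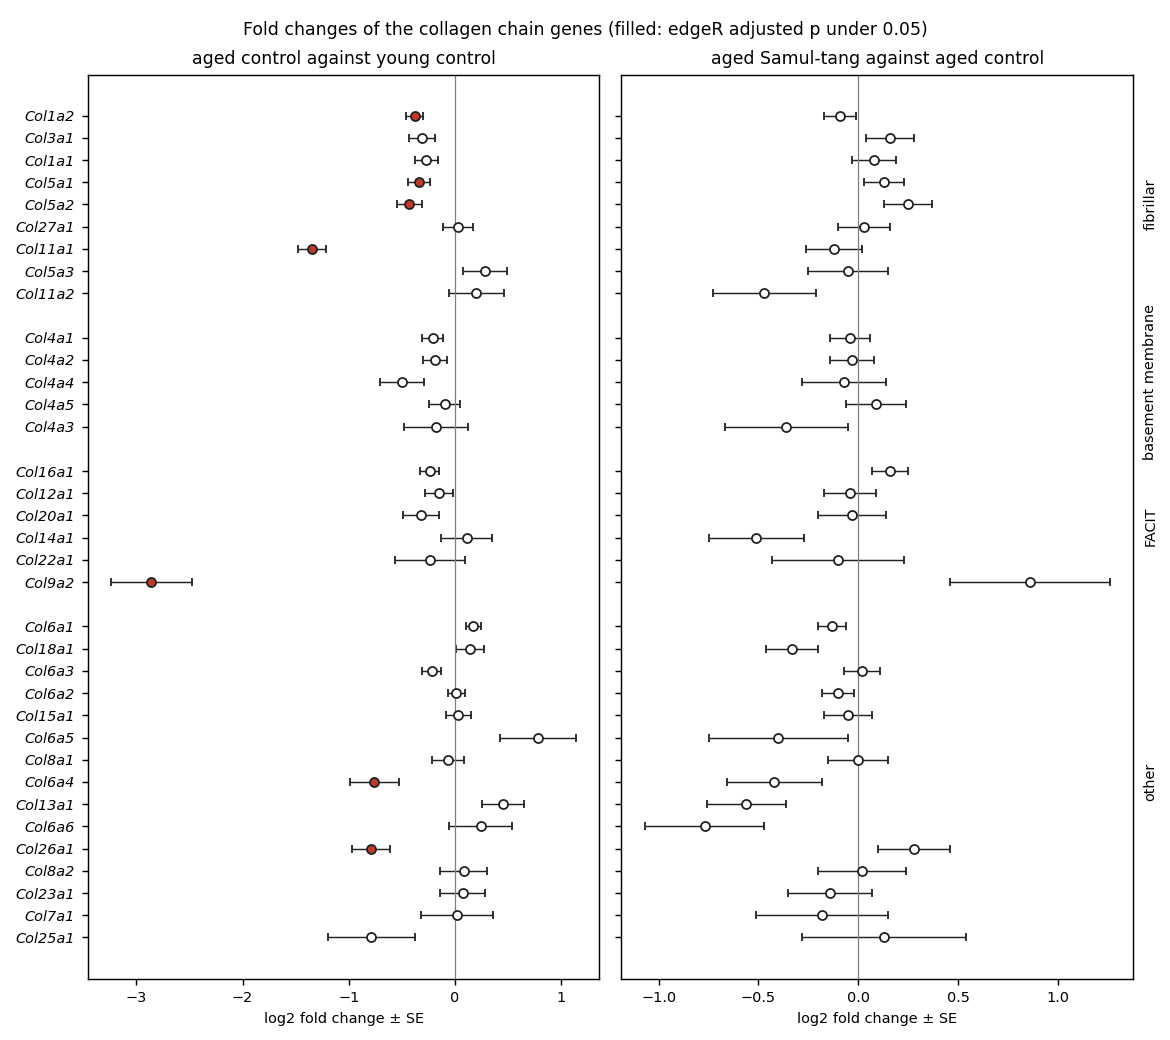
Log2 fold changes (points) with SE (bars) of the 35 collagen chain genes, grouped by class and ordered within a class by mean CPM, in aged control against young control (left) and aged Samul-tang against aged control (right). Filled points passed the edgeR threshold: 7 chains on the left, all below 0, and none on the right.

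Among the 9 fibrillar chains 4 fell with age, and the class median was -0.306 on the log2 scale. Col1a2 encodes the second chain of type I collagen, the main fibre collagen. It had 609.6, 718.7 and 783.5 CPM (lowest, median and highest library) in aged controls, against 782.8, 956.1 and 998.3 CPM in young controls. The groups met only at young control 3, the lowest young library, which lay just under the highest aged control. The log2 fold change was -0.38 ± 0.08 (SE; edgeR adjusted p = 0.00217).

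Type V collagen starts the assembly of type I fibrils and limits their width. Its chain Col5a1 had 49.85, 51.61 and 63.42 CPM in aged controls, against 49.85, 71.02 and 79.12 CPM in young controls. Its chain Col5a2 had 42.26, 45.46 and 57.44 CPM in aged controls, against 47.62, 64.98 and 70.73 CPM in young controls. In both genes the groups overlapped, with young control 3 the lowest young library. The log2 fold changes were -0.34 ± 0.10 for Col5a1 (edgeR adjusted p = 0.033) and -0.43 ± 0.12 for Col5a2 (edgeR adjusted p = 0.0183). The call on Col5a1 was lost on leaving out any of aged controls 2, 4, 5 and 6 or young controls 1, 2, 4 and 5.

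Col11a1, a chain of type XI collagen, is a close relative of the type V chains and is best known from cartilage, where it sits inside thin fibrils. It had 7.055, 9.606 and 10.02 CPM in aged controls, against 19.85, 23.43 and 26.39 CPM in young controls. The ranges were far apart, with every young library above every aged one. The log2 fold change was -1.35 ± 0.13 (edgeR adjusted p = 4.98e-07), and it stayed between -1.4 and -1.15 and past the threshold under all 29 alternative settings. No cartilage marker was called lower beside it. Matn1 was under 1 CPM in all libraries, and Acan had 1.493 to 4.582 CPM in aged controls, against 0.3507 to 1.923 CPM in young controls (log2 1.44 ± 0.48, edgeR adjusted p = 0.0625).

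**Figure D2:**
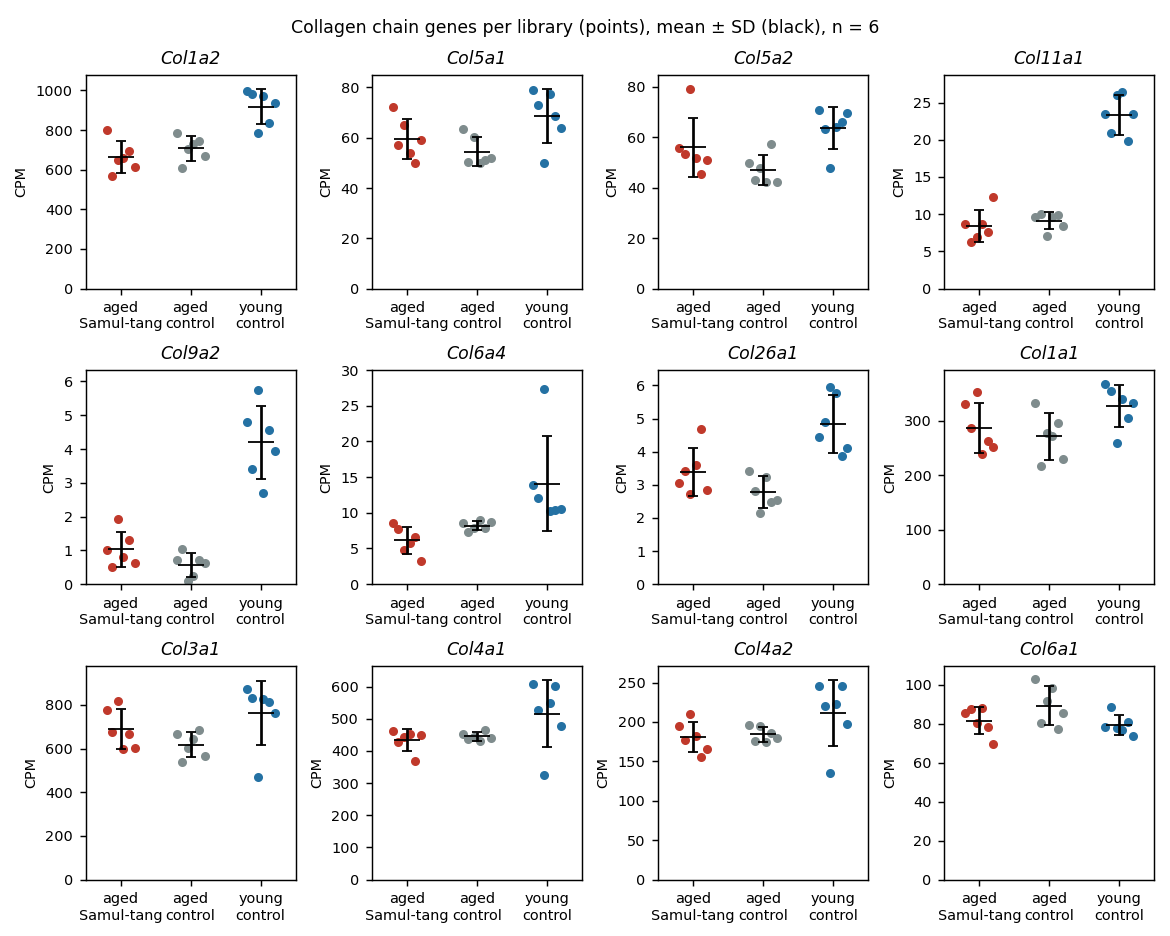
CPM of 12 collagen chain genes in each library (points) with the group mean ± SD (black), 6 libraries per group, each panel with its own axis from 0. Col11a1, Col9a2, Col6a4 and Col26a1 show no overlap between aged and young controls, while the aged Samul-tang and aged control points overlap in every panel.

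The promoters of Col1a2, Col5a1 and Col11a1, 3 of the 4 fibrillar chains called lower in aged controls, are shown as examples. That of Col5a2 is not shown. The stretches were taken from the RefSeq promoter table (build GRCm38.p6, whereas the count tables were made on GRCm39), within the 250 bases before the start and free of annotated exons. Capitals mark every match to 3 promoter motifs on either strand. The motifs were the CCAAT box (printed as ATTGG where the match was on the opposite strand), the TATA box, searched as TATAAA, and the GC box, searched as GGGCGG (printed as CCGCCC where the match was on the opposite strand).
Col1a2, chr6:4505370-4505492, plus strand: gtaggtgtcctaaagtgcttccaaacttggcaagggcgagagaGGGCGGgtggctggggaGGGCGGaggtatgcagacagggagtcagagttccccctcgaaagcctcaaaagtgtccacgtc
Col5a1, chr2:27886175-27886380, plus strand: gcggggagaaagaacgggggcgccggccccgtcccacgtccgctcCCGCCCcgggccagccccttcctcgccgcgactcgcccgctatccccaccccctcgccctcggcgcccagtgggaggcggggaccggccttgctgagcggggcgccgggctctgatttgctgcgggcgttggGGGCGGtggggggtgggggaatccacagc
Col11a1, chr3:114030290-114030478, plus strand: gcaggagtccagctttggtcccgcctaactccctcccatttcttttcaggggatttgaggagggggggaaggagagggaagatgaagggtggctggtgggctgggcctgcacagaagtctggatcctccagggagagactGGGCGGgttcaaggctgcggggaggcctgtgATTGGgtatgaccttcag
Col1a2 and Col5a1 each held 2 matches to GGGCGG, Col11a1 held 1 match to GGGCGG and 1 to CCAAT, and none of the matches overlapped. Promoters were found for 28 of the 35 members, in 30 windows, and the motifs were counted over the full 250 bases of each window, not the shorter stretches printed. GGGCGG was present in 21 of the 30 windows (70.0%), against 32.7% of all 32851 promoters of the table, also over 250 bases. CCAAT was present in 11 windows (36.7%, against 33.8%) and TATAAA in 3 (10%, against 12.4%). A match describes the letters of these windows and was not tied to any measured binding.

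The 2 most abundant fibrillar chains after Col1a2 were not called. Col3a1, the single chain of type III collagen, a collagen of soft tissues, had 539.6, 623.8 and 684.6 CPM in aged controls, against 469.9, 819.0 and 874.1 CPM in young controls. Col1a1, the partner of Col1a2, had 217.8, 275.0 and 332.9 CPM in aged controls, against 260.0, 336.4 and 366.9 CPM in young controls. The groups overlapped in both, and the log2 fold changes were -0.31 ± 0.12 (edgeR adjusted p = 0.113) and -0.27 ± 0.11 (edgeR adjusted p = 0.132). Col1a1 passed the threshold without aged control 1, at -0.34 (edgeR adjusted p = 0.0479). The other fibrillar chains, Col5a3, Col11a2 and Col27a1, had log2 fold changes from 0.03 to 0.28 and were not called.

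Young control 3 stood apart in the abundant chains. It was the lowest young library in 6 of the 9 fibrillar and 3 of the 5 basement membrane chains. For Col3a1 it held 469.9 CPM, against 764.3 to 874.1 CPM in the other 5 young controls. Without it, 9 chains were called lower, 6 of them among the 7 above. The added 3 were Col3a1 at -0.41 ± 0.08 (edgeR adjusted p = 0.000863), Col4a1 at -0.31 ± 0.06 (edgeR adjusted p = 0.00198) and Col4a2 at -0.29 ± 0.07 (edgeR adjusted p = 0.00825), while Col6a4 was no longer called. With aged Samul-tang 6 left out as well, which enters this contrast only through the pooled spread, 12 chains were called lower and 1, Col6a5, higher, and all 7 were among them. Col6a3 and Col16a1 were the 2 further chains called lower. Cell type markers also differed in this library. It was the lowest young control in 4 of 4 smooth muscle and 3 of 5 stromal fibroblast markers, with 362.8 CPM of the contractile gene Acta2, against 525.2 to 596.9 CPM in the other 5. It was the highest in 3 of 4 tested granulosa, 3 of 3 macrophage and 2 of 3 theca markers, with 382.9 CPM of Cyp17a1, against 39.76 to 128.5 CPM in the other 5. Among the tested markers of the other lists it was the lowest in 1 of 4 luteal, 1 of 4 mesothelial and 1 of 1 adipocyte markers. It was the highest in 2 of 4 luteal, 2 of 5 oocyte, 1 of 3 pericyte, 1 of 4 blood endothelial and 1 of 3 lymphatic markers. The part of this library's make-up in the values was not tested.

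Basement membrane chains lay below 0 in all 5 cases, at -0.5 to -0.1 on the log2 scale with a median of -0.194, and none was called. Col4a1 and Col4a2 encode the chains of the common type IV network and lie head to head on chromosome 8. Col4a1 had 429.4, 442.1 and 466.2 CPM in aged controls, against 326.7, 537.9 and 607.3 CPM in young controls (log2 -0.21 ± 0.10, edgeR adjusted p = 0.212). Col4a2 had 174.7, 183.0 and 196.7 CPM in aged controls, against 134.8, 221.6 and 245.8 CPM in young controls (log2 -0.19 ± 0.11, edgeR adjusted p = 0.279). In both genes 5 of the 6 young controls lay above every aged control, and young control 3 lay below all of them. Col4a4, a chain of the network best known from the kidney filter, had the largest difference of the class: 11.3, 15.16 and 22.04 CPM in aged controls, against 19.07, 21.88 and 32.7 CPM in young controls (log2 -0.50 ± 0.21, edgeR adjusted p = 0.136).

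Among the 6 FACIT chains 1 fell. Col9a2, a chain of type IX collagen, which coats fibrils in cartilage, had 0.08604, 0.6697 and 1.028 CPM in aged controls, against 2.704, 4.257 and 5.752 CPM in young controls. In counts this was 1 to 12 in aged and 37 to 65 in young libraries, so all young libraries lay above all aged ones. Its log2 fold change of -2.86 ± 0.38 (edgeR adjusted p = 1.94e-05) was the largest of the 35 chains in the edgeR fit. It came to -1.01 with limma on log2(TPM + 1), a scale on which changes of low genes shrink, and to between -3.11 and -1.01 over all 29 alternatives, each past the threshold. On the log2(TPM + 1) scale the change of Col11a1, -1.15, was the larger of these 2. Aged controls entered the membership rule with only 1 library of at least 10 counts for this gene, so it is a member through the other groups. Without it, 6 of 34 chains were called lower and the median was -0.165. The remaining FACIT chains, Col12a1, Col14a1, Col16a1, Col20a1 and Col22a1, were not called. The nearest was Col16a1, with 28.89, 34.88 and 37.6 CPM in aged controls, against 35.05, 40.44 and 44.6 CPM in young controls (log2 -0.24 ± 0.09, edgeR adjusted p = 0.0879); it is named here after its values were seen. It passed the threshold at -0.27 ± 0.09 without young control 3 and aged Samul-tang 6 (edgeR adjusted p = 0.0431) and at -0.24 in a fit of the 12 libraries compared (edgeR adjusted p = 0.0408), but not without either library alone (edgeR adjusted p = 0.0535 and 0.0782).

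Of the 15 other chains 2 fell, and the class median was 0.026. Col26a1, first described in mouse testis and ovary, had 2.151, 2.686 and 3.426 CPM in aged controls, against 3.858, 4.665 and 5.966 CPM in young controls. All aged libraries lay below all young ones (log2 -0.79 ± 0.18, edgeR adjusted p = 0.00508). Col6a4, one of the additional type VI chains of the mouse, had 7.365, 8.202 and 8.927 CPM in aged controls, against 10.23, 11.26 and 27.38 CPM in young controls. The ranges did not overlap (log2 -0.76 ± 0.23, edgeR adjusted p = 0.0395), but the highest value was that of young control 3. Without that library the fold change was -0.47 ± 0.17 (edgeR adjusted p = 0.0851), and the call was also lost on leaving out young control 1 or any of the 6 aged controls. In all, 4 chains had aged controls entirely below young controls (Col11a1, Col9a2, Col26a1 and Col6a4) and none entirely above, against 4.17% and 3.21% of all genes.

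None of the common type VI chains was called. Col6a1 had 77.31, 88.52 and 102.9 CPM in aged controls, against 73.68, 77.92 and 88.54 CPM in young controls (log2 0.17 ± 0.07, edgeR adjusted p = 0.151). Col6a2, its neighbour on chromosome 10, had 49.42, 62.05 and 74.14 CPM in aged controls, against 56.35, 59.97 and 67.23 CPM in young controls (log2 0.01 ± 0.08, edgeR adjusted p = 0.95). Both pairs of ranges overlapped, and the sign for Col6a2 changed with the setting. Col6a3, the longest chain of the filament, had 53.4, 59.15 and 69.83 CPM in aged controls, against 66.77, 68.12 and 76.8 CPM in young controls (log2 -0.22 ± 0.09, edgeR adjusted p = 0.124). It passed at -0.23 ± 0.08 without young control 3 and aged Samul-tang 6 (edgeR adjusted p = 0.0496) and at -0.22 in a fit of the 12 libraries compared (edgeR adjusted p = 0.031), but not without either library alone (edgeR adjusted p = 0.127 and 0.0551). The largest difference in the upward direction was that of Col6a5, with 11.73, 14.62 and 22.37 CPM in aged controls, against 6.244, 7.776 and 17.68 CPM in young controls (log2 0.78 ± 0.36, edgeR adjusted p = 0.202); it was chosen after its values were seen. The overlap came from young control 3 alone, at 17.68 CPM, against 6.244 to 9.172 CPM in the other 5. The fold change of Col6a5 was 1.05 ± 0.35 without that library (edgeR adjusted p = 0.0709), 0.78 ± 0.25 without aged Samul-tang 6 (edgeR adjusted p = 0.0498) and 1.05 ± 0.19 without both (edgeR adjusted p = 0.000576).

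**Figure D3:**
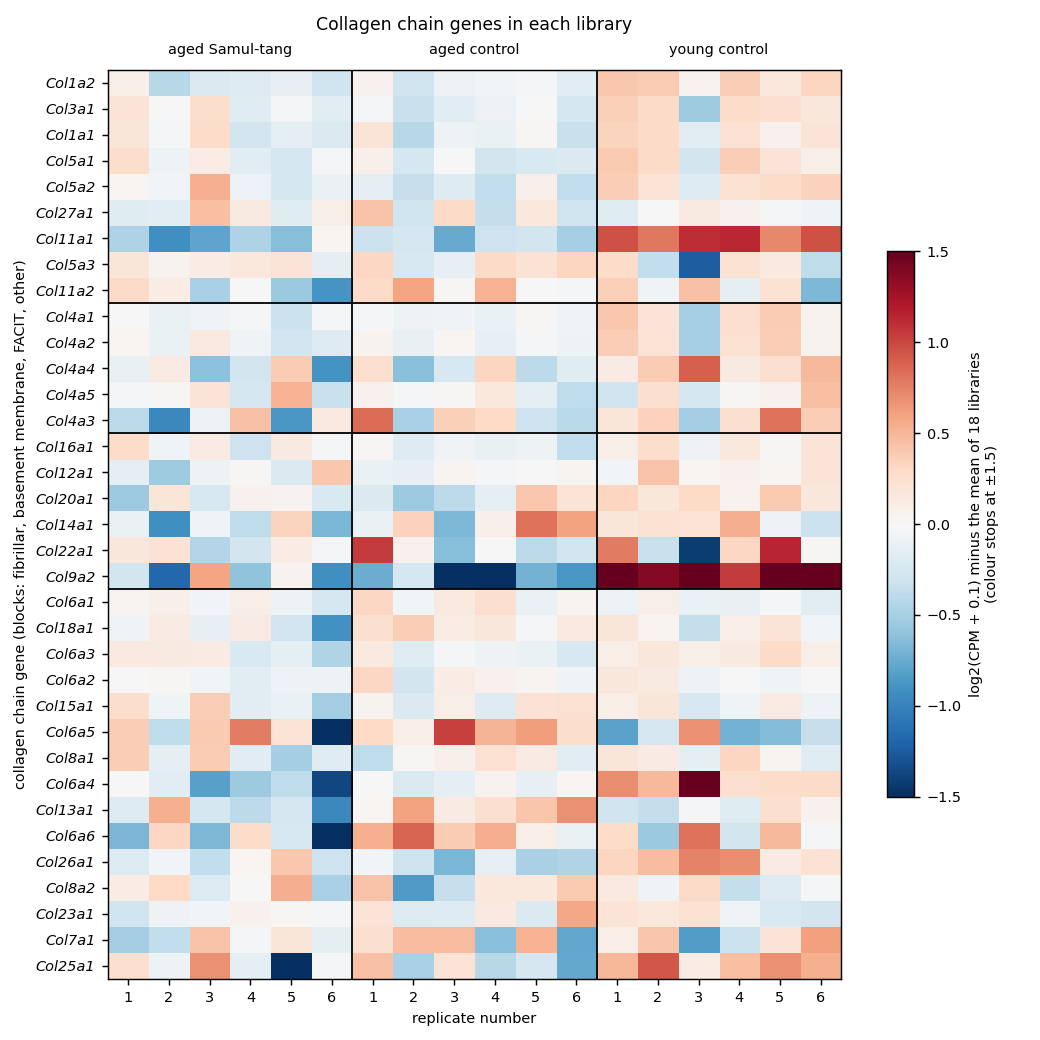
Each cell gives log2(CPM + 0.1) of a collagen chain gene in a library minus its mean over the 18 libraries, with genes in blocks by class and libraries by group and replicate number. Col11a1 and Col9a2 are high in all 6 young controls, young control 3 is low in Col3a1, Col4a1 and Col4a2, and aged Samul-tang 6 is low in many chains of the last block.

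Markers of several cell types also differed between aged and young controls. Summed stromal fibroblast markers had 345.4, 422.3 and 482.2 CPM in aged controls, against 494.5, 511.8 and 570.6 CPM in young controls. Of these 5 markers 1 was called lower, the matrix proteoglycan Dcn at -0.40 ± 0.09 on the log2 scale (edgeR adjusted p = 0.0042). All 5 lay below 0, at -0.40 to -0.09. Dcn alone made up most of the sum, with medians of 289.3 CPM in aged controls and 372.7 CPM in young controls. The smooth muscle markers, 4 of 4 called lower, summed to 426.1, 472.9 and 484.2 CPM in aged controls, against 533.1, 770.1 and 858.9 CPM in young controls. Markers called lower were 5 of 5 for the oocyte, 3 of 4 tested for granulosa cells, 2 of 3 for theca, 2 of 3 for lymphatic endothelium and 1 of 4 for mesothelium and surface epithelium. Markers called higher were 1 of 4 luteal, 1 of 4 blood endothelial and 1 of 4 of mesothelium and surface epithelium. No pericyte, macrophage, adipocyte, oviduct or cartilage marker was called, and the 2 skeletal muscle markers were too low to be tested. The part of these markers in the collagen values was not tested.

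Ratios between chains compare genes within a library, so that the scaling of the library cancels. The log2 ratio of Col3a1 to Col1a1 (type III to type I collagen) was 1.20 ± 0.12 in aged controls and 1.20 ± 0.19 in young controls (SD, n = 6; two-sided exact permutation p = 0.931, adjusted p = 0.952). Col1a1 to Col1a2, the partners within type I collagen, stood at -1.39 ± 0.11 in aged controls and -1.49 ± 0.05 in young controls (SD, n = 6; exact permutation p = 0.0714, adjusted p = 0.402). Col4a1 to Col4a2, the partners within type IV collagen, stood at 1.27 ± 0.06 in aged controls and 1.28 ± 0.02 in young controls (SD, n = 6; exact permutation p = 0.545, adjusted p = 0.818). None of these differences reached an exact permutation p under 0.05. In the aged Samul-tang group the ratios were 1.27 ± 0.05, -1.21 ± 0.24 and 1.27 ± 0.12, against 1.20 ± 0.12, -1.39 ± 0.11 and 1.27 ± 0.06 in aged controls (SD, n = 6; exact permutation p = 0.214, 0.134 and 0.952; adjusted p = 0.428, 0.402 and 0.952). Adjustment was over these 6 tests, whose smallest possible p is 0.00216.

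**Figure D4:**
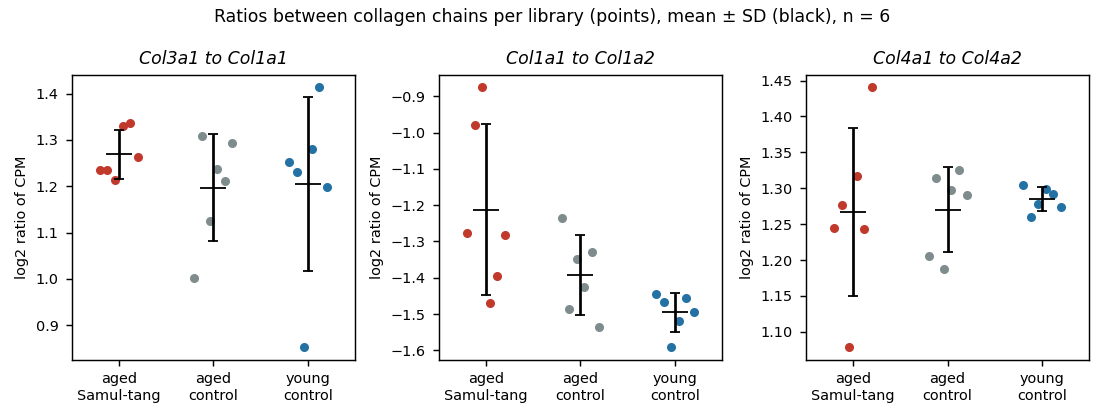
Log2 ratios of CPM between collagen chains in each library (points) with the group mean ± SD (black), 6 libraries per group; the axes do not start at 0. The groups overlap in all 3 ratios, and the widest spread in Col1a1 to Col1a2 is that of the aged Samul-tang group (SD 0.24).

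The comparison of the aged Samul-tang group with aged controls asked what 4 weeks of the decoction changed in the aged ovary. No collagen chain was called in either direction (0 of 35, edgeR), while 0.489% of all genes were called lower and 0.548% higher, 1.04% in all. DESeq2 also called 0. Unadjusted p was under 0.05 for 6 chains, against 16.9% of all genes. The median log2 fold change was -0.045, against 0.007 over all genes, and single chains ran from -0.77 to 0.86. Of the 35 chains 23 lay below 0, against 48.6% of all genes. By class the medians were 0.026 for fibrillar, -0.035 for basement membrane, -0.034 for FACIT and -0.13 for the other chains. In no chain were the 2 groups free of overlap, against 0.678% of all genes lower and 0.849% higher.

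None of the 7 chains that were lower in aged than in young controls was called between treated and untreated aged mice. Col11a1 had 6.3, 8.149 and 12.24 CPM in the aged Samul-tang group, against 7.055, 9.606 and 10.02 CPM in aged controls (log2 -0.12 ± 0.14, edgeR adjusted p = 0.716). Col1a2 had 565.5, 654.1 and 800.3 CPM in the aged Samul-tang group, against 609.6, 718.7 and 783.5 CPM in aged controls (log2 -0.09 ± 0.08, edgeR adjusted p = 0.594). For both, the treated range enclosed the control range, but its upper end rested on 1 library. That was aged Samul-tang 6 for Col11a1, with the next treated library at 8.698 CPM. For Col1a2 it was aged Samul-tang 1, with the next at 692.2 CPM. Col5a2 had 45.46, 52.38 and 78.86 CPM in the aged Samul-tang group, against 42.26, 45.46 and 57.44 CPM in aged controls (log2 0.25 ± 0.12, edgeR adjusted p = 0.279). Col5a1 had 50.02, 58.22 and 72.16 CPM in the aged Samul-tang group, against 49.85, 51.61 and 63.42 CPM in aged controls (log2 0.13 ± 0.10, edgeR adjusted p = 0.55). The treated range of both type V chains reached above the control range. For Col5a2 this rested on aged Samul-tang 3 alone, with the next treated library at 55.66 CPM. For Col5a1 the next treated library, at 65.06 CPM, also lay above the control range. Col9a2 had 0.4974, 0.9028 and 1.932 CPM in the aged Samul-tang group (9 to 42 counts), against 0.08604, 0.6697 and 1.028 CPM in aged controls (1 to 12 counts), a log2 difference of 0.86 ± 0.40 (edgeR adjusted p = 0.272). At these low counts the unadjusted edgeR p was 0.0415, and the difference was not called after adjustment over all genes tested. Col26a1 had 2.715, 3.236 and 4.682 CPM in the aged Samul-tang group, against 2.151, 2.686 and 3.426 CPM in aged controls (log2 0.28 ± 0.18, edgeR adjusted p = 0.465). Col6a4 had 3.26, 6.201 and 8.546 CPM in the aged Samul-tang group, against 7.365, 8.202 and 8.927 CPM in aged controls (log2 -0.42 ± 0.24, edgeR adjusted p = 0.384).

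The abundant chains that were not called with age were not called here either. Col1a1 had 238.1, 275.2 and 353.4 CPM in the aged Samul-tang group, against 217.8, 275.0 and 332.9 CPM in aged controls (log2 0.08 ± 0.11, edgeR adjusted p = 0.759). Col3a1 had 598.3, 670.4 and 819.7 CPM in the aged Samul-tang group, against 539.6, 623.8 and 684.6 CPM in aged controls (log2 0.16 ± 0.12, edgeR adjusted p = 0.529). For both, the median of each group lay within the range of the other group. Col4a1 had 369.2, 446.6 and 461.5 CPM in the aged Samul-tang group, against 429.4, 442.1 and 466.2 CPM in aged controls. Col4a2 had 155.9, 179.6 and 209.9 CPM in the aged Samul-tang group, against 174.7, 183.0 and 196.7 CPM in aged controls. Their log2 fold changes were -0.04 ± 0.10 and -0.03 ± 0.11 (edgeR adjusted p = 0.905 and 0.927). Col4a4 had 9.411, 15.37 and 22.82 CPM in the aged Samul-tang group, against 11.3, 15.16 and 22.04 CPM in aged controls (log2 -0.07 ± 0.21, edgeR adjusted p = 0.914). The type VI filament chains also overlapped. Col6a1, Col6a2 and Col6a3 had medians of 83.01, 57.44 and 62.81 CPM in the aged Samul-tang group, against 88.52, 62.05 and 59.15 CPM in aged controls, with log2 fold changes of -0.13 ± 0.07, -0.10 ± 0.08 and 0.02 ± 0.09 (edgeR adjusted p = 0.38, 0.544 and 0.946).

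The 6 chains with an unadjusted p under 0.05 are named after their values were seen. Col13a1, a membrane-spanning collagen, stood at -0.56 ± 0.20 on the log2 scale (edgeR adjusted p = 0.137), Col6a6, another additional type VI chain, at -0.77 ± 0.30 (0.186) and Col14a1, a FACIT chain, at -0.51 ± 0.24 (0.288). Col18a1, whose end fragment is endostatin, had 33.22, 58.66 and 68.42 CPM in the aged Samul-tang group, against 61.86, 69.81 and 81.1 CPM in aged controls (log2 -0.33 ± 0.13, edgeR adjusted p = 0.218). The remaining 2 were Col9a2 and Col5a2, both above 0. Aged Samul-tang 6 was the lowest treated library in 9 of the 15 other chains, among them Col13a1, Col6a6 and Col18a1. For Col18a1 the next lowest treated library was at 51.33 CPM. No chain was called in this comparison without aged Samul-tang 6. Col13a1 passed the threshold only on leaving out aged Samul-tang 2 (edgeR adjusted p = 0.0454). Treated libraries were deeper and held a smaller share of the most abundant gene. With that share as a covariate, the fold changes of Col5a1, Col5a2, Col11a1, Col1a1, Col3a1, Col6a3 and Col4a4 changed sign, and none of them passed the threshold with either sign.

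Set against young controls, 5 chains fell in the aged Samul-tang group and none rose (edgeR), while 10.9% of all genes were called lower and 11.5% higher, 22.4% in all. Young controls enter this comparison and the age comparison alike, so the lists are not independent. All treated libraries were deeper than all young controls, and a separate batch cannot be told apart here either. The 5 were Col11a1 at -1.47 ± 0.13 (edgeR adjusted p = 1.16e-07), Col9a2 at -2.0 ± 0.35 (0.00024), Col6a4 at -1.19 ± 0.23 (0.00123), Col1a2 at -0.47 ± 0.08 (0.00018) and Col26a1 at -0.52 ± 0.18 (0.0384). Against the same young controls, aged controls had shown -1.35, -2.86, -0.76, -0.38 and -0.79 for these genes. The type V chains were not called, with Col5a1 at -0.21 (edgeR adjusted p = 0.152) and Col5a2 at -0.18 (edgeR adjusted p = 0.286). Col5a1 passed without young control 3, at -0.28 (edgeR adjusted p = 0.0251). Col5a2 passed without aged Samul-tang 3, at -0.31 (edgeR adjusted p = 0.0238), and with the share of the most abundant gene as covariate, at -0.47 (edgeR adjusted p = 0.00721). The basement membrane chain Col4a4 was close to the threshold, at -0.57 ± 0.21 (edgeR adjusted p = 0.053). It passed in some alternatives, among them RLE scaling at -0.58 (edgeR adjusted p = 0.0497) and DESeq2 at -0.58 (DESeq2 adjusted p = 0.015). The median over the 35 chains was -0.193, against 0.002 over all genes, and 30 of them lay below 0, against 49.7% of all genes. Unadjusted p was under 0.05 for 10 chains, against 33.9% of all genes. The groups were free of overlap in 3 chains, all lower, against 4.65% of all genes lower and 4.85% higher. Without young control 3, 8 chains were called lower; Col3a1, Col4a1, Col4a2 and Col5a1 joined and Col26a1 dropped out. Col26a1 lost its call on leaving out any of young controls 2, 3 and 4 or aged Samul-tang 1, 2, 3 and 6.

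The 59 genes of collagen synthesis, processing, binding and basement membrane assembly were examined beside the chains, 53 of them tested. In aged against young controls 10 were called lower and 1 higher, against 6.03% and 5.25% of all genes. Of 21 genes for folding and modification 5 fell and none rose, with a median of -0.034. Serpinh1, the chaperone that binds newly made collagen, had 149.2, 175.0 and 190.7 CPM in aged controls, against 188.1, 240.7 and 254.2 CPM in young controls (log2 -0.42 ± 0.08, edgeR adjusted p = 0.00149). The ranges touched only at the highest aged and the lowest young library. The lysyl hydroxylases Plod1 and Plod2, which prepare sites for cross-links, fell by 0.30 and 0.24 on the log2 scale, each ± 0.07 (edgeR adjusted p = 0.00336 and 0.0162). The prolyl hydroxylase subunit P4ha3, which helps make the helix stable, was rare, with 0.7906, 1.116 and 2.149 CPM in aged controls, against 1.704, 2.483 and 3.255 CPM in young controls (log2 -0.95 ± 0.26, edgeR adjusted p = 0.0163).

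Of the 9 tested genes for trimming and cross-linking 1 fell. Adamts2, the enzyme that removes the N-terminal propeptide of fibrillar collagens, had 32.72, 43.57 and 46.64 CPM in aged controls, against 58.98, 67.6 and 75.52 CPM in young controls. The ranges were apart (log2 -0.68 ± 0.08, edgeR adjusted p = 2.29e-06). Of the 9 receptor and uptake genes 1 fell, the collagen-binding receptor kinase Ddr1, at -0.40 ± 0.08 (edgeR adjusted p = 0.00235). Its range was 36.77 to 55.75 CPM in aged controls, against 57.87 to 65.63 CPM in young controls. The medians of these lists were -0.005 and -0.007.

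Among 14 tested basement membrane partners 3 fell and 1 rose with age, with a median of -0.061. All 4 encode chains of laminins, which form a network beside that of type IV collagen. Lamb1, shared by many laminins, had 132.3, 155.1 and 158.2 CPM in aged controls, against 199.7, 211.4 and 221.4 CPM in young controls (log2 -0.49 ± 0.06, edgeR adjusted p = 1.03e-05). Lama2 was at 8.518 to 13.88 CPM in aged controls, against 17.61 to 21.52 CPM in young controls (log2 -0.76 ± 0.13, edgeR adjusted p = 0.000311). Both were free of overlap. Lama1 stood at -0.33 ± 0.10 (edgeR adjusted p = 0.0395) and Lama5 at 0.57 ± 0.17 (edgeR adjusted p = 0.0309). The call on Lama1 was lost in 13 of 29 alternatives, among them leaving out any of aged controls 1, 2, 3, 4 and 6 or young controls 1, 2, 3 and 6. That on Lama5 was lost in 7 of 29, among them leaving out any of aged controls 2, 4 and 5 or young controls 1, 5 and 6.

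**Figure D5:**
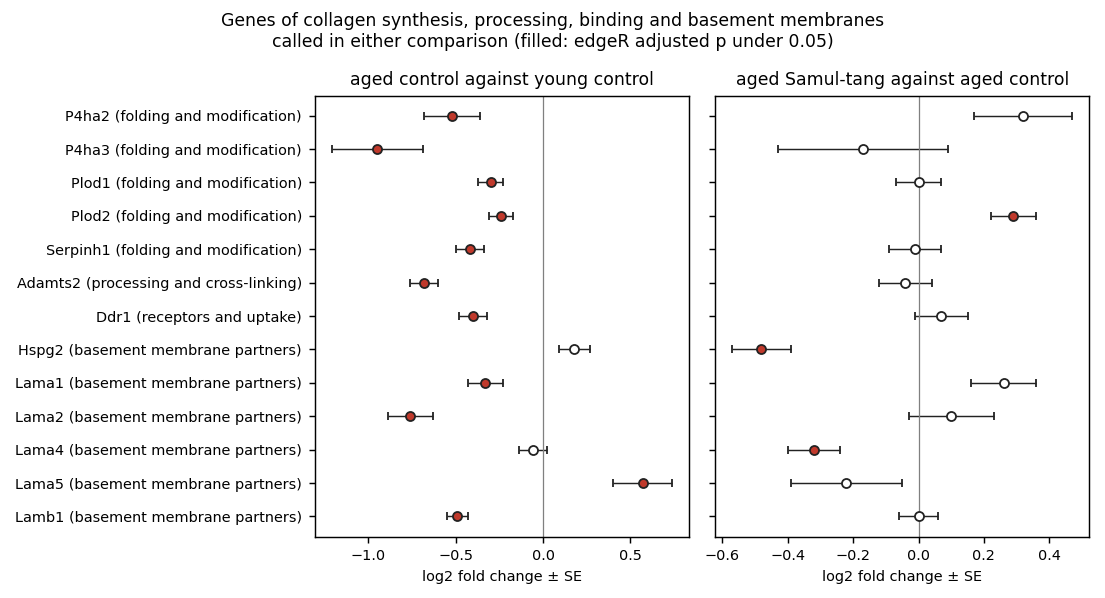
Log2 fold changes (points) with SE (bars) of the 13 genes of the synthesis, processing, receptor and basement membrane lists that passed the edgeR threshold in aged control against young control (left) or aged Samul-tang against aged control (right); filled points passed it. On the left 10 are below 0 and Lama5 is above 0; on the right Hspg2 and Lama4 are below 0 and Plod2 is above 0.

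In the aged Samul-tang group against aged controls, 2 of these genes fell and 1 rose, against 0.489% and 0.548% of all genes. Hspg2, the basement membrane proteoglycan perlecan, had 78.17, 91.18 and 116.1 CPM in the aged Samul-tang group, against 124.4, 131.3 and 144.5 CPM in aged controls (log2 -0.48 ± 0.09, edgeR adjusted p = 0.0173). Lama4, a laminin chain of vessel walls, had 31.19, 34.51 and 38.81 CPM in the aged Samul-tang group, against 39.1, 43.26 and 50.95 CPM in aged controls (log2 -0.32 ± 0.08, edgeR adjusted p = 0.0426). Plod2 had 237.9, 273.7 and 327.5 CPM in the aged Samul-tang group, against 221.4, 230.3 and 235.4 CPM in aged controls (log2 0.29 ± 0.07, edgeR adjusted p = 0.0305). In all 3 genes the groups did not overlap. With the share of the most abundant gene as a covariate none of the 3 passed the threshold: Hspg2 stood at -0.36 (edgeR adjusted p = 0.46), Lama4 at -0.17 (0.701) and Plod2 at 0.18 (0.615). Hspg2 stayed at -0.36 or further from 0 under all 29 alternatives but also missed the threshold with the trend on gene length removed (-0.36, edgeR adjusted p = 0.0776), while Lama4 was at -0.01 in both limma fits of the deposited TPM (adjusted p = 0.967 and 0.968). The calls on Lama4 and Plod2 were also lost on leaving out any of aged controls 1, 2, 3, 4 and 6 or aged Samul-tang 1, 2 and 3, and that on Lama4 on leaving out aged Samul-tang 5 or any of young controls 1, 2, 4, 5 and 6. The 4 markers of blood endothelium, none of them called, summed to 138.3, 224.9 and 246.0 CPM in the aged Samul-tang group, against 234.6, 246.4 and 263.3 CPM in aged controls. Aged Samul-tang 6 was the lowest treated library in all 4. No marker of another list was called, and signs differed between lists. The 5 stromal fibroblast markers all lay above 0, at 0.03 to 0.33 on the log2 scale. The part of vessel content, other cell types and depth in the values of Hspg2, Lama4 and Plod2 was not tested. Against young controls, 12 of these genes were called lower and 4 higher in the aged Samul-tang group, against 10.9% and 11.5% of all genes.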

How the data were processed

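Total RNA of 18 ovaries was made into QuantSeq 3′ libraries, per the labels' protocols. Tools named in the submitters' processing notes were STAR 2.7.9a, RSEM 1.3.3 and FastQC 1.9, with the genome build GRCm39. Annotation and strand setting were not given in the sources used here, so overlapping and antisense genes may share reads. Each library came as 1 gene table in the RSEM format with columns of expected counts, TPM and FPKM, per the file headers. Expected counts, the deposited estimates of reads per gene, were rounded to whole numbers. The deposited TPM values, divided by gene length by the authors, served only as an alternative, and the deposited FPKM values were not used. Symbols were matched by Ensembl identifier for 52083 of 55416 genes.

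Genes were kept with the edgeR filter (10 counts at median depth, 15 in all), scaled by TMM (factors 0.94 to 1.07) and tested with edgeR 4.0.16 in R 4.3.3: quasi-likelihood, robust, two-sided, all 18 libraries in 1 fit with 3 group means. P-values were adjusted by Benjamini-Hochberg over 16959 genes and called under 0.05. SE came from the fold change and F statistic. CPM used TMM library sizes, and 1 CPM stood for 9 to 20 counts. Ratios between chains were compared by exact permutation over all 924 regroupings. Each library is 1 mouse, per the labels. Counts of every pair of libraries (153) differed by more than sampling noise, with chi-square per degree of freedom of 3.93 or more. Alternatives were RLE scaling, DESeq2 1.42.0, other filters, a fit of 2 groups, limma 3.58.1 on log2(TPM + 0.1) or log2(TPM + 1), a replicate block and each library left out. The procedure was checked on simulated counts.

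The members, classes, gene lists and tests were chosen with earlier results of these data known. Values are given for chains called in any comparison, for Col1a1, Col1a2, Col3a1, Col4a1, Col4a2, Col6a1, Col6a2 and Col6a3, and for the tested chain with the largest age difference in each class; pathway genes are at most 4 called per list and comparison. Genes outside this rule are said to be so.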

Additional observations from a re-analysis of the deposited data

Results flagged for a closer look

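In 66 groups of 6 libraries examined, 5 values lay far from the other 5 of their group by Dixon's criterion, and chance gives about 1 in 20 groups. Col5a2 stood at 78.86 CPM in aged Samul-tang 3, against 45.46 to 55.66 CPM in the other 5 treated libraries. Col4a1, a basement membrane chain, stood at 369.2 CPM in aged Samul-tang 5, against 429.0 to 461.5 CPM in the others. The other 3 values belong to young control 3. There Col5a2 was low at 47.62 CPM, against 63.17 to 70.73 CPM in the other young controls, and Col3a1 was low at 469.9 CPM, against 764.3 to 874.1 CPM. Col6a4 was high in the same library, at 27.38 CPM, against 10.23 to 13.94 CPM. The groups examined did not take in every chain in every group. Col6a5, at 17.68 CPM in young control 3 against 6.244 to 9.172 CPM in the other young controls, is not among the 5 values.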

How the results depend on the processing

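Under 29 alternatives, Col1a2, Col11a1, Col26a1 and Col9a2 stayed past the threshold in aged against young controls; Col5a1 did so in 17, Col5a2 in 27 and Col6a4 in 19. The count of chains called lower with age, 7, was 4 without a filter on low counts, 12 without young control 3 and aged Samul-tang 6, and 5 to 9 without single libraries; the count called higher was 1 without those 2 libraries and 0 to 1 without single ones. Chains called lower with Samul-tang numbered 0 to 1 without single libraries. Chains called lower in the aged Samul-tang group against young controls, 5, numbered 8 without those 2 libraries, 8 with the share of the most abundant gene as covariate and 4 to 8 without single libraries; 1 was called higher without the 2 libraries. Leaving out these 2 together, that covariate and the removal of a trend with gene length were chosen after seeing the data.

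Pathway genes called higher with age, 1, numbered 2 without the 2 libraries, 0 with the length trend removed and 0 to 1 without single libraries. Those called lower with Samul-tang, 2, numbered 4 by DESeq2, 0 with the covariate, 1 in the fit of 2 groups, both TPM fits, the replicate block and with the length trend removed, and 1 to 3 without single libraries. Those called higher with Samul-tang, 1, numbered 0 in the fit of 2 groups, both TPM fits, the block and with the covariate, and 0 to 1 without single libraries. Those called higher in the aged Samul-tang group against young controls, 4, numbered 2 in the fit of 2 groups, both TPM fits and with the length trend removed, 0 with the covariate, and 1 to 4 without single libraries.

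Signs changed in values that were never called. With the covariate, the Samul-tang fold changes were -0.07 for Col5a1, -0.1 for Col5a2, 0.08 for Col11a1, -0.22 for Col1a1, -0.1 for Col3a1, -0.22 for Col6a3 and 0.19 for Col4a4. With the length trend removed they were 0.03 for Col4a2 and 0.03 for Col4a4, and 0.04 for Col4a4 without the 2 libraries. Without single libraries they ran from -0.06 to 0.01 for Col4a1, -0.08 to 0.01 for Col4a2, -0.03 to 0.09 for Col6a3 and -0.21 to 0.04 for Col4a4. With age, Col6a2 was at -0.04 in both TPM fits, -0.01 without the 2 libraries and -0.05 to 0.06 without single ones, and the ratio of Col3a1 to Col1a1 ran from -0.08 to 0.03. The causes were not tested.

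Replicate numbers are shared between groups. Correlations between same-number libraries, as deviations from their group means, ran from -0.12 to 0.07 and gave no sign of pairing by number. Pairing by cage under another numbering cannot be seen this way, and no fit included cages. With the number as a block, 6 chains were called lower with age, 0 with Samul-tang and 4 in the aged Samul-tang group against young controls. Col9a2 and Col25a1 had 1 count in their lowest libraries, where counting error alone is large.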
